A study of Saccharomyces cerevisiae with 11 samples.

Results

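The genes described here encode the DNA replication machinery of budding yeast: 41 genes named for their role at the origin or the fork. They were found in the tables by their NCBI Gene number and taken from a list of names, with no threshold on a measured value. This list and the promoter motifs were chosen with earlier results of these data known. Counts and shares of the 41 genes below are therefore descriptions and no independent support. All 41 have a row in each of the 2 expression tables, out of 5936 rows in the table holding the GD, SD and control libraries and 5931 in the table of the RD and ControlSYN3 libraries. They make up 13 groups: the origin recognition complex (6 genes), CDC6, the MCM2 to MCM7 helicase (6), MCM10, CDC45, GINS (4), polymerase alpha with primase (4), polymerase epsilon (4), polymerase delta (3), the clamp POL30, its loader RFC (5), the single-strand binding protein RPA (3), and the pair CDC9 and RAD27, which finish the lagging strand.

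The series, on clustered essential genes in Saccharomyces cerevisiae, holds 11 libraries made from total RNA with oligo-dT beads. Strains of the genotypes GD, SD and RD gave 3 libraries each, and the wild type gave 1 library named control and 1 named ControlSYN3. The labels give these genotypes by letters only, name no allele, and give no strain background, medium, growth stage or cell number; short recoded tags told synthetic from wild-type gene copies. They do not say whether the 3 libraries of a genotype came from separate strains, clones or cultures, so the p-values measure the spread between libraries, which may be technical.

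In yeast, the origin recognition complex marks each origin and, with CDC6, loads the MCM2 to MCM7 helicase in G1. CDC45 and GINS join the helicase when S phase starts, polymerase alpha with primase lays primers, and polymerases epsilon and delta extend them on the clamp POL30, the yeast PCNA. Transcription of many of these genes peaks at the border of G1 and S phase, where the factors MBF and SBF bind elements in the promoters: the MCB, with the core ACGCGT, and the SCB, CACGAAA or CGCGAAA.

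The promoters below are shown because they span the range of responses among the 41 genes: POL30, RAD27, CDC45 and POL1 differed most between GD and SD libraries, apart from RFC5, while ORC4 and PSF2 did not pass the test; they were chosen after their values were seen. Each sequence is 300 bases of the R64 RefSeq genome in the direction of transcription, from 250 bases before the annotated start, which in this annotation is the start codon, to 50 bases after it. Capitals mark every MCB core, on either strand, since this core reads the same on both. The Gene numbers of these genes in the files are 852385, 853747, 850793, 855621, 856291 and 853373, in that order. The windows are chrII:425717-426016, minus strand; chrXI:225826-226125, minus strand; chrXII:345892-346191, minus strand; chrXIV:429837-430136, plus strand; chrXVI:868255-868554, minus strand; and chrX:305813-306112, minus strand.
POL30: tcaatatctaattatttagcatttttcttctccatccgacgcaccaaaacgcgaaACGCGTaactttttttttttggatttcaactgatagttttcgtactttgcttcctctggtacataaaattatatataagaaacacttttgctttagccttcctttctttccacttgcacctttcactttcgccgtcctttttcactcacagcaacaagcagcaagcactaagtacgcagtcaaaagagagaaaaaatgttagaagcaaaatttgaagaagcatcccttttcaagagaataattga
RAD27: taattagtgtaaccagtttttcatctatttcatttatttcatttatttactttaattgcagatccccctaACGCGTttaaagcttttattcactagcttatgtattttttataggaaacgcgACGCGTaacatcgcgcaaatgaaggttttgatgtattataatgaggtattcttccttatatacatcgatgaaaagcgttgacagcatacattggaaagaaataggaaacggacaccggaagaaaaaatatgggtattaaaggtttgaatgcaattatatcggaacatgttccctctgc
CDC45: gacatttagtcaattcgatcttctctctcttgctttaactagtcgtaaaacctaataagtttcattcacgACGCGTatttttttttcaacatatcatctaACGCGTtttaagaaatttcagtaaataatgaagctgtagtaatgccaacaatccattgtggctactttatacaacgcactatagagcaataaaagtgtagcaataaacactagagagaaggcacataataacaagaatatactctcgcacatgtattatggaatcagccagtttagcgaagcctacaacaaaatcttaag
POL1: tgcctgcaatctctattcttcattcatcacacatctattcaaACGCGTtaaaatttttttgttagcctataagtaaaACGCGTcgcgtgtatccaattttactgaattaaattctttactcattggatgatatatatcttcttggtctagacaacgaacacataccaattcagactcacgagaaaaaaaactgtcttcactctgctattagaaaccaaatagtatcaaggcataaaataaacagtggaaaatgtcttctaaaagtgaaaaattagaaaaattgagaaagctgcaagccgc
ORC4: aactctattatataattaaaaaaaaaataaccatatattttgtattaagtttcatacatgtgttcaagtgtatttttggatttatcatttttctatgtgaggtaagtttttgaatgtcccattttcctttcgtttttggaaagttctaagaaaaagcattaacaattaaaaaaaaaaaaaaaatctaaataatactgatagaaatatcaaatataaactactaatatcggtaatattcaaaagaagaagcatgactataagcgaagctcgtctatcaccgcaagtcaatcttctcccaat
PSF2: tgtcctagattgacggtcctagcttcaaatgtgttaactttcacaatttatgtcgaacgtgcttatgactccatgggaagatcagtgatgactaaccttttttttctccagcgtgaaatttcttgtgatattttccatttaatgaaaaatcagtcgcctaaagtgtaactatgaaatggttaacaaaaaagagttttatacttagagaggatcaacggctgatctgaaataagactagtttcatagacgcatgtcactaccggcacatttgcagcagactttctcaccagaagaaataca
RAD27, CDC45 and POL1 hold 2 cores each, POL30 holds 1 that overlaps an SCB match, and ORC4 and PSF2 hold none. These picks do not show a link of core and response. RFC5, not shown, differed by 1.66 on the log2 scale and holds no core, and PSF3, not shown, holds 1 and did not pass. Of the 24 genes with no core, 15 passed as higher in GD.

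The values are the authors' FPKM, fragment numbers divided by transcript length and by the size of the library, so they are levels per length. Setting different genes beside each other, as in the rankings and ratios of subunits below, assumes that reads cover transcripts evenly. That was not tested in these oligo-dT libraries, and the subunits differ in length. The values hold no depth, and the number of reads behind a value is unknown. The 2 tables were normalised separately, and every test was made within one of them. RD1 stood apart from the other libraries in genes of mating type: the summed level of 6 genes specific to a cells was 4404 FPKM in RD1 and 33.8 to 198 FPKM in the other libraries, and the sum of 4 genes specific to alpha cells was 114 FPKM in RD1 and 2525 to 11090 FPKM in the others. No gene of either list was at 0 in any library. RD results are therefore given with and without RD1, and the part of mating type in them was not tested.

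Within the table of GD, SD and wild type, the 41 genes sat lowest in the SD libraries, where SD names the genotype throughout. Control had a median level of 55.9 FPKM for them, GD1 to GD3 had 40.9, 36.8 and 37.2 FPKM, and SD1 to SD3 had 24.0, 25.4 and 21.0 FPKM, although the median over all rows of the table was 61.4 to 64.4 FPKM in SD and 51.5 to 62.1 FPKM in GD. ControlSYN3, in its own table, had a median of 25.9 FPKM, against 33.1, 37.7 and 40.1 FPKM for RD1, RD5 and RD6. Ranked by level among all rows, the 41 genes had a median percentile of 16.3 to 19.1 in the SD libraries, 30 to 37.5 in the GD libraries and 37.8 in control. In bulk RNA, fewer cells that replicate their DNA and less RNA per cell cannot be told apart.

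**Figure D1:**
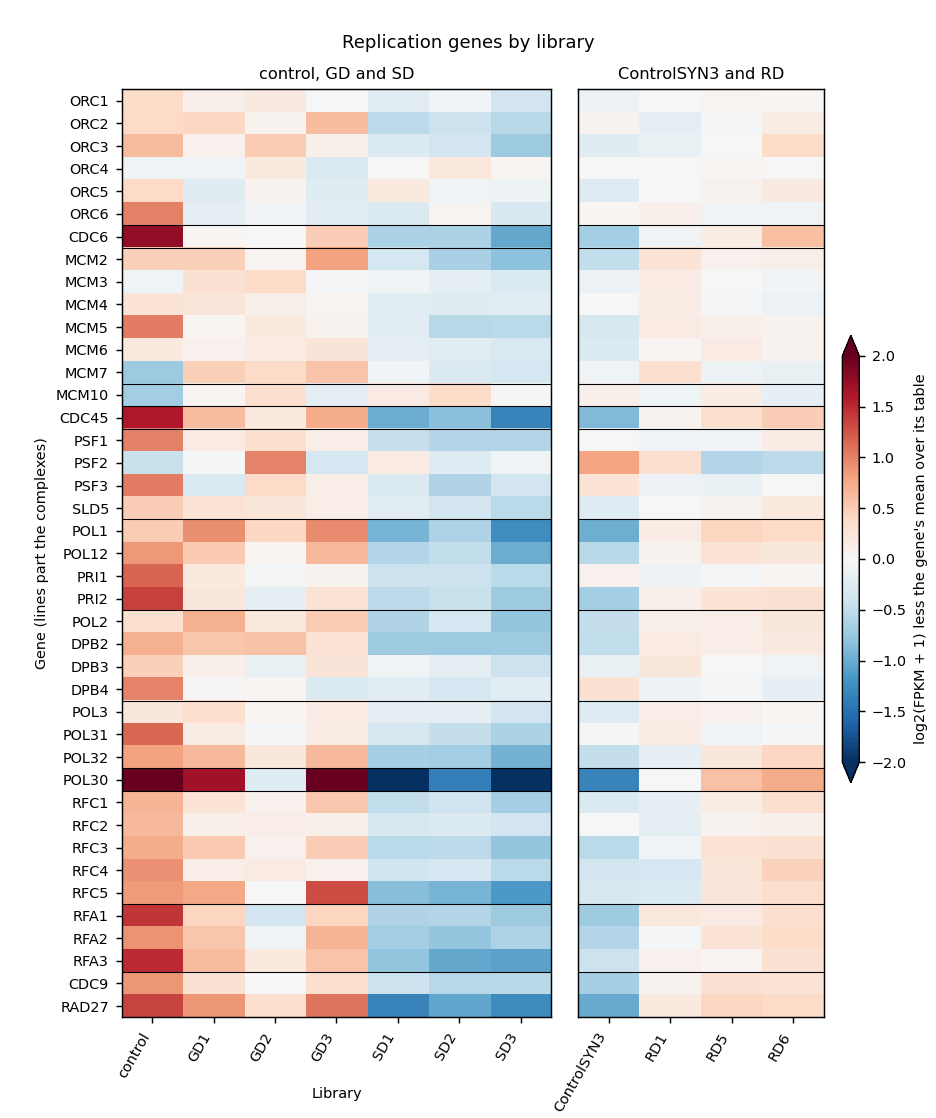
Level of each of the 41 genes (vertical axis, lines part the 13 groups) in each library (horizontal axis), as log2(FPKM + 1) less the gene's own mean over its table, red above and blue below that mean, with colours clipped at 2. The 3 SD columns are blue for most genes, POL30 has the widest contrast, and ORC4, MCM10 and PSF2 do not follow the others.

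Between GD and SD strains, most of the replication genes were higher in GD and none was lower. By limma on log2(FPKM + 1), with Benjamini-Hochberg adjustment at 0.05 over all 5899 genes tested, 31 of 41 passed as higher in GD, where 20.4% of all genes did, and 0 passed as lower, where 20.4% of all genes did. Passing genes included every tested subunit of polymerase alpha and primase (4 of 4), polymerase delta (3 of 3), RFC (5 of 5) and RPA (3 of 3), with POL30, CDC45, CDC6, CDC9 and RAD27. The 10 that did not pass were ORC1, ORC4, ORC5, ORC6, MCM3, MCM10, PSF2, PSF3, DPB3 and DPB4. The median log2 difference of the 41 genes was 0.68, against -0.04 over all genes. Without SD3, 18 of 41 passed as higher, where 9.39% of all genes did, and 0 as lower, where 12% did. In 33 of 41 genes every GD library was above every SD library, which held for 27.9% of all genes. The shares of 20.4% for passing as higher and 27.9% for this order of libraries also stand beside every count by complex below.

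**Figure D2:**
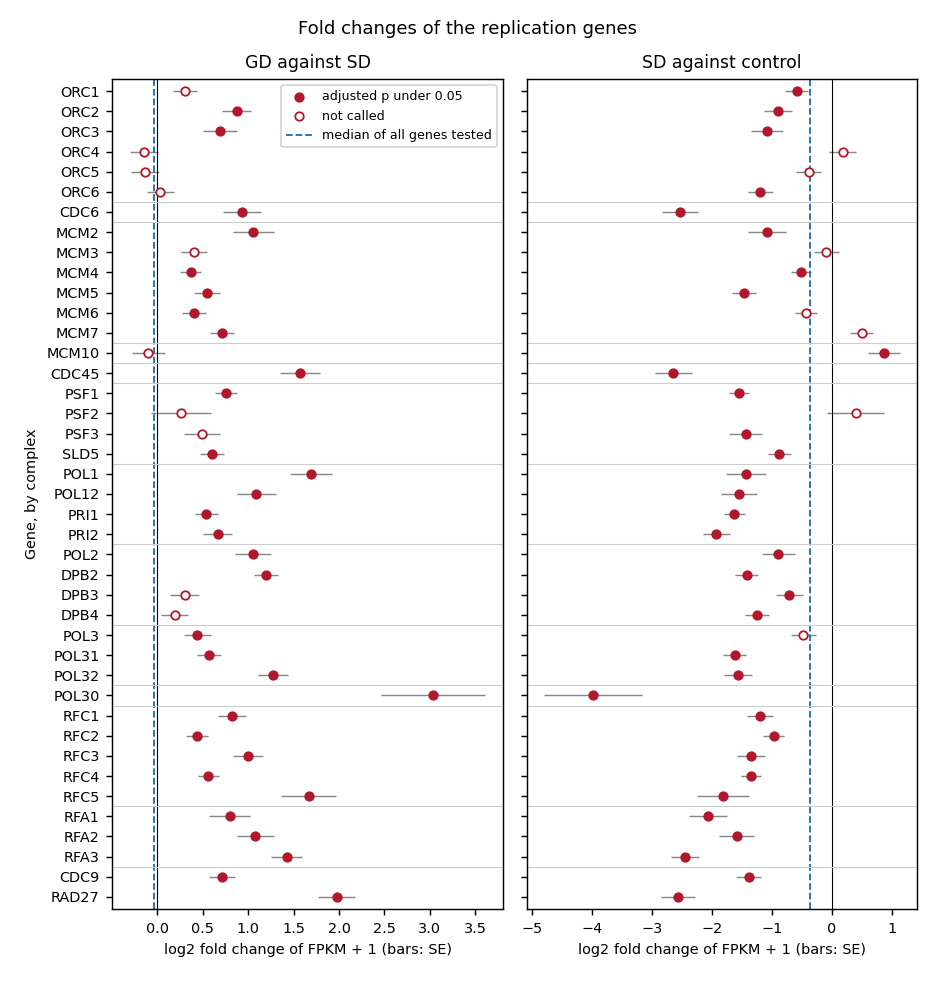
Fitted log2 fold change of each gene (vertical axis, by group) on the log2(FPKM + 1) scale (horizontal axis), GD against SD on the left and SD against control on the right, with bars of 1 SE, filled points where the adjusted p was under 0.05, and a dashed line at the median of all genes tested. POL30 lies farthest out in each panel, at 3.04 and -3.99, and ORC4, ORC5 and MCM10 lie at or below 0 on the left.

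Subunits of the origin recognition complex, which stays at origins through the cell cycle, differed little between GD and SD as a group, with a median log2 difference of 0.17. ORC2 and ORC3 passed as higher in GD and the other 4 did not pass. Values below run in the order of library numbers. ORC5, on average the most abundant of the 6, was at 37.2, 46.4 and 37.2 FPKM in GD, 50.6, 41.7 and 40.8 FPKM in SD and 58.2 FPKM in control. ORC3, the lowest of the 6 in all 11 libraries, was at 18.4, 25.01 and 18.6 FPKM in GD, 14.2, 13.1 and 10.2 FPKM in SD and 27.4 FPKM in control, so its groups did not overlap while those of ORC5 did. ORC4, at 29.4, 35.6 and 25.4 FPKM in GD, 31.5, 36.3 and 31.9 FPKM in SD and 29.2 FPKM in control, had overlapping groups, with a log2 difference between GD and SD of -0.15 ± 0.16 (SE, adjusted p = 0.474, limma).

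CDC6, the loader that is made afresh in each cycle and soon degraded, was scarcer than every ORC gene in the GD and SD libraries. It was at 9.9, 9.57 and 13.9 FPKM in GD, 5.88, 5.89 and 4.24 FPKM in SD and 35.4 FPKM in control. Control was above every GD library and every GD library above every SD library. CDC6 passed as higher in GD than in SD, with a fitted log2 difference of 0.93 ± 0.21 (SE, adjusted p = 0.012, limma). It did not pass without SD3 (log2 0.799, adjusted p = 0.0564), where the alternatives gave adjusted p of 0.00781 to 0.0564 (limma).

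Of the helicase core, 5 of 6 MCM genes passed as higher in GD than in SD, all but MCM3. The median log2 difference of the 6 was 0.47, and the difference was 1.06 for MCM2 and 0.71 for MCM7. MCM3, the most abundant of them on average, was at 52.5, 55.4 and 41.7 FPKM in GD, 40.3, 37.02 and 34.6 FPKM in SD and 39.9 FPKM in control. MCM2, the least abundant on average, was at 23.3, 17.2 and 29.6 FPKM in GD, 12.7, 10.1 and 8.86 FPKM in SD and 23.3 FPKM in control. In GD1, GD3 and control MCM6 was lower, at 19.4, 22.1 and 21.1 FPKM. The groups of GD and SD did not overlap for MCM2 or MCM3, though MCM3 missed the threshold (adjusted p = 0.0632, limma).

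MCM7 had another order of groups than the rest of its complex. It was at 54.96, 51.4 and 59.1 FPKM in GD, 37.6, 32.2 and 30.4 FPKM in SD and 23.3 FPKM in control. Control was here the lowest library of the table, below every SD library. The same held for MCM10, a helicase activator, at 19.03, 23.6 and 16.1 FPKM in GD, 20.8, 23.98 and 18.1 FPKM in SD and 10.96 FPKM in control, where GD and SD overlapped.

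CDC45, which completes the active helicase, was scarce and strongly unequal between groups. It was at 15.4, 11.2 and 16.8 FPKM in GD, 4.33, 4.98 and 3.24 FPKM in SD and 31.2 FPKM in control, with means of 14.5 ± 2.88 FPKM (standard deviation, n = 3) in GD and 4.18 ± 0.88 FPKM (standard deviation, n = 3) in SD. No groups overlapped, and on the scale of FPKM + 1 GD was 2.98-fold above SD (log2 1.57 ± 0.22 SE, adjusted p = 0.00177, limma), higher in 3 of 3 GD libraries. With 0.1 added to the FPKM in place of 1, the log2 difference was 1.77.

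Of the GINS subunits, which bind CDC45 and the helicase together, PSF1 and SLD5 passed and PSF2 and PSF3 did not. Whether these subunits differ from each other was not tested. PSF1 was at 41.8, 46.6 and 41 FPKM in GD, 26.8, 24.3 and 24.6 FPKM in SD and 75.9 FPKM in control, and passed as higher in GD than in SD (log2 0.75 ± 0.12 SE, adjusted p = 0.00313, limma). SLD5, the least abundant in the GD, SD and control libraries, passed too, at 31.2, 30.4 and 27.9 FPKM in GD, 21.6, 19.3 and 17.2 FPKM in SD and 36.4 FPKM in control. In neither gene did the groups overlap. PSF2 was at 88.3, 182 and 70.98 FPKM in GD, 102, 75.3 and 86.3 FPKM in SD and 66.03 FPKM in control. GD2 was its highest library and the other GD libraries lay among or below the SD ones; the log2 difference of 0.26 ± 0.34 (SE, adjusted p = 0.561, limma) became -0.14 without GD2.

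Polymerase alpha and primase, which start every new strand, rose together in GD over SD, with 4 of 4 genes passing. POL1, the catalytic subunit, was at 21.5, 14.7 and 21.8 FPKM in GD, 5.2, 6.67 and 4 FPKM in SD and 15.8 FPKM in control. The mean was 19.3 ± 4.01 FPKM (standard deviation, n = 3) in GD and 5.29 ± 1.34 FPKM (standard deviation, n = 3) in SD. On the log scale of FPKM + 1 the difference was 3.24-fold (log2 1.69 ± 0.23 SE, adjusted p = 0.00169, limma). With 0.1 added in place of 1, the log2 difference was 1.86. PRI2, the large primase subunit, was at 41.1, 30.9 and 42.4 FPKM in GD, 23.97, 25.6 and 21.01 FPKM in SD and 92.2 FPKM in control. For POL1 control lay within the range of GD, and for PRI2 it lay far above it. POL1 was the scarcest of the 4 in every library of this table, and the ratio of the most to the least abundant of the 4 was 1.91 to 2.33 in GD, 3.89 to 5.98 in SD and 5.84 in control.

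In polymerase epsilon, which copies the leading strand, the calls differed by subunit. POL2, the catalytic subunit, and DPB2, its essential partner, passed as higher in GD than in SD. The small histone-fold subunits DPB3 and DPB4 did not pass, with log2 differences of 0.30 and 0.19. Whether the subunits differ from each other was not tested. DPB2 was at 35.96, 36.98 and 29.9 FPKM in GD, 14.3, 14.2 and 14.5 FPKM in SD and 40.2 FPKM in control, with no overlap of GD and SD (log2 1.196 ± 0.13 SE, adjusted p = 0.000742, limma). POL2 was at 23.1, 15.99 and 19.9 FPKM in GD, 8.7, 10.6 and 7.53 FPKM in SD and 17.3 FPKM in control. DPB4 was at 94.5, 96.4 and 76.4 FPKM in GD, 79.9, 73.7 and 79.5 FPKM in SD and 186 FPKM in control, where GD3 lay below SD1 and SD3. The most abundant subunit was 4.08 to 6.03 times the level of POL2, the least abundant, in GD, 6.95 to 10.6 times in SD and 10.7 times in control.

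In polymerase delta, which copies the lagging strand, 3 of 3 genes passed as higher in GD than in SD, and the accessory subunit POL32 differed most. POL32 was at 64.1, 47.5 and 64.4 FPKM in GD, 25.2, 24.7 and 20.7 FPKM in SD and 71.5 FPKM in control (GD over SD log2 1.27 ± 0.16 SE, adjusted p = 0.00132, limma). POL3, the catalytic subunit, was the scarcest of the 3 in all 11 libraries, at 22.9, 18.4 and 20.2 FPKM in GD, 15.5, 15.5 and 13.5 FPKM in SD and 20.99 FPKM in control. POL31, the most abundant on average, was at 52.04, 46.1 and 51.6 FPKM in GD, 37.4, 33.2 and 29.6 FPKM in SD and 105 FPKM in control. GD lay above SD without overlap in all 3, which held for 27.9% of all genes.

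POL30, the sliding clamp that holds the polymerases on DNA, had the largest log2 difference between GD and SD among the 41 genes. It was at 122, 31.4 and 162 FPKM in GD, 8.48, 13.96 and 7.26 FPKM in SD and 166 FPKM in control. GD2 lay far below the other GD libraries but still above every SD library, and the standard deviation of the GD group was large, at 105 ± 66.8 FPKM (standard deviation, n = 3), against 9.9 ± 3.57 FPKM (standard deviation, n = 3) in SD. On the log scale of FPKM + 1 GD was 8.21-fold above SD (log2 3.04 ± 0.57 SE, adjusted p = 0.00635, limma), higher in 3 of 3 libraries. The log2 difference was 3.75 without GD2 and 2.58 without GD3.

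The clamp loader RFC, which opens the clamp and closes it around DNA, passed as higher in GD than in SD in 5 of 5 subunits. RFC2, the most abundant on average, was at 112, 115 and 112 FPKM in GD, 83.9, 85.8 and 80.6 FPKM in SD and 165 FPKM in control, with close agreement inside each group. RFC4, the least abundant on average, was at 36.9, 37.9 and 35.6 FPKM in GD, 25.2, 25.97 and 22.7 FPKM in SD and 64.02 FPKM in control. RFC3 was at 89.2, 65.5 and 87.2 FPKM in GD, 41.8, 42.4 and 35.1 FPKM in SD and 103 FPKM in control (GD over SD log2 0.99 ± 0.16 SE, adjusted p = 0.00357, limma). In all of these 3 GD lay above SD without overlap, which held for 27.9% of all genes. RFC5 had a larger and more uneven difference, at 63.6, 36.9 and 92.99 FPKM in GD, 20.01, 19 and 16.2 FPKM in SD and 67.2 FPKM in control (GD over SD log2 1.66 ± 0.31 SE, adjusted p = 0.00586, limma), with GD2 the lowest and GD3 the highest of the GD libraries, as in POL30.

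RPA, which coats single-stranded DNA at the fork, passed as higher in GD than in SD in 3 of 3 subunits. RFA3, the smallest subunit and the most abundant transcript of the 3 in all 11 libraries, was at 131, 96.2 and 125 FPKM in GD, 48.4, 40.95 and 39.6 FPKM in SD and 239 FPKM in control. Control was above every GD library and GD above every SD library, with GD 2.68-fold over SD on the log scale of FPKM + 1 (log2 1.42 ± 0.17 SE, adjusted p = 0.000936, limma). RFA1, the largest subunit and the least abundant of the 3 in all 11 libraries, was at 40.9, 22.7 and 40.8 FPKM in GD, 19.3, 19.6 and 17.9 FPKM in SD and 82.6 FPKM in control, where GD2 was close to the SD libraries.

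RAD27, the flap nuclease, and CDC9, the DNA ligase, process and seal Okazaki fragments in turn, and both passed as higher in GD. RAD27 was at 75.1, 51.2 and 85.4 FPKM in GD, 15.4, 19.1 and 16.1 FPKM in SD and 104 FPKM in control, with means of 70.6 ± 17.6 FPKM (standard deviation, n = 3) and 16.9 ± 1.96 FPKM (standard deviation, n = 3) in GD and SD. Its GD libraries lay 3.93-fold above SD on the log scale of FPKM + 1 (log2 1.98 ± 0.20 SE, adjusted p = 0.000589, limma), the lowest adjusted p among the 41 genes. CDC9 was at 25.2, 20.1 and 25.7 FPKM in GD, 15, 13.5 and 13.4 FPKM in SD and 38.1 FPKM in control. RAD27 was 2.54 to 3.33 times the level of CDC9 in GD and 2.74 times in control, but 1.02 to 1.41 times in SD.

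**Figure D3:**
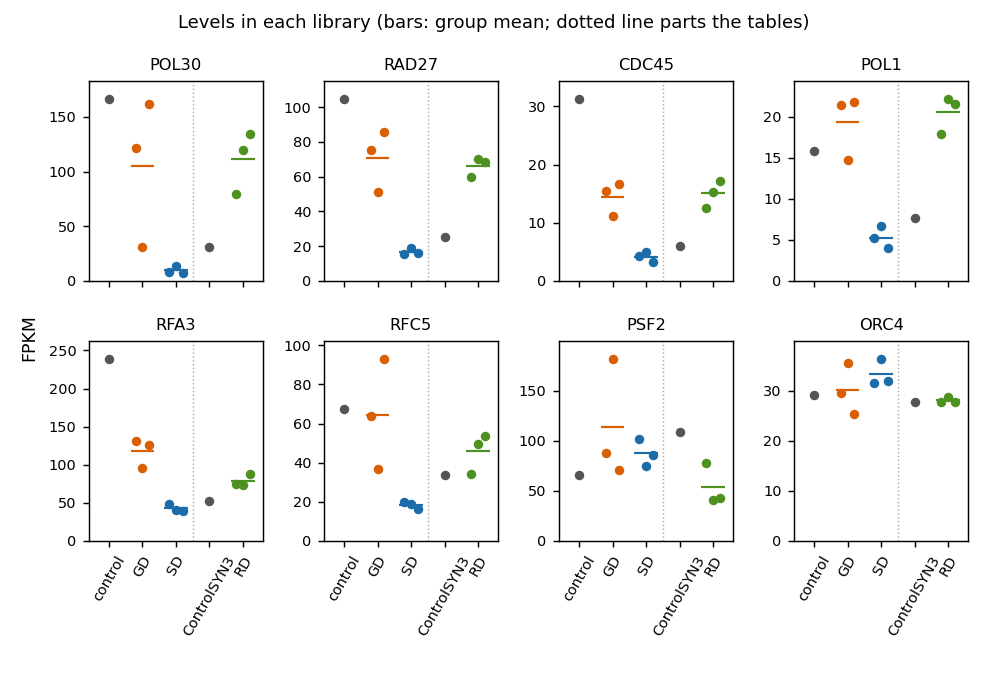
FPKM (vertical axes, each from 0) in every library of 8 of the genes, by group on the horizontal axes, with 1 point per library, a bar at the mean of each group of 3, and a dotted line between the tables. POL30, RAD27, CDC45, POL1, RFA3 and RFC5 have every SD point below every GD point, PSF2 and ORC4 do not, and ControlSYN3 lies below every RD point in all of these but PSF2 and ORC4.

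Against the wild-type control library, SD strains had lower levels of most replication genes. Of the 41 genes, 33 passed as lower in SD, where 31.4% of all genes did, and 1 passed as higher, where 10.4% of all genes did (limma, adjusted p under 0.05). Control was a single library, assumed to vary like the strains. All genes were shifted against this library: the median log2 difference of all genes was -0.37 for SD and -0.44 for GD. Scaling the libraries by the median ratio of all genes brought these medians to -0.0016 and -0.03. Scaled in that way, 25 of the 41 genes passed as lower in SD, where 17.5% of all genes did, and 3 as higher, where 18.7% did. Relative to the median of all genes, the median of the 41 lay at -0.97 as deposited and at -0.97 after scaling. These values agree almost by construction, since scaling moves all genes of a library by nearly the same amount. In 36 of 41 genes every SD library was below control, which held for 60.5% of all genes.

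The size of the difference between SD and control was greatest for the clamp. POL30 fell by 3.99 on the log2 scale (SE 0.81, adjusted p = 0.008, limma) and was lower in 3 of 3 SD libraries. RFA3 had the lowest adjusted p, with a log2 difference of -2.45 ± 0.24 (SE, adjusted p = 0.000911, limma), and was also lower in every SD library. CDC45 (-2.65), RAD27 (-2.57), CDC6 (-2.53), PRI2 (-1.93), PRI1, the catalytic primase subunit (-1.63), POL31 (-1.62) and PSF1 (-1.55) were the others among the 8 genes with the lowest adjusted p, each lower in 3 of 3 SD libraries and with adjusted p from 0.00109 to 0.00151 (limma). RFC5, at -1.82 ± 0.43 (SE, adjusted p = 0.0141, limma), no longer passed after scaling. MCM10 passed as higher, by 0.87 ± 0.26 (SE, adjusted p = 0.0314, limma), but did not pass without GD1, without SD1 or without SD2.

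GD strains stood closer to control. Of the 41 genes, 14 passed as lower in GD, where 27.1% of all genes did, and 1 as higher, where 4.98% did (limma, adjusted p under 0.05), so these shares were near those of all genes. The median log2 difference of the 41 genes was -0.41, against -0.44 over all genes. Every GD library was below control in 29 of 41 genes, which held for 59.6% of all genes, and above it in 4 of 41, which held for 16.2%. After scaling by the median ratio of all genes, 4 passed as lower, where 8.98% of all genes did, and 3 as higher, where 9.32% did. In a fit of GD and control alone, 0 passed in either direction (limma), where 3.48% of all genes passed as lower and 1.14% as higher; at an unadjusted p under 0.05, 13 of the 41 were lower, where 26.2% of all genes were, and 1 was higher, where 5.42% were. The comparisons of GD and SD with control share that library and are not independent of each other.

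The gene higher in GD than in control was MCM7, by 1.21 ± 0.19 on the log2 scale (SE, adjusted p = 0.00606, limma) and in 3 of 3 GD libraries. Among the lower genes, CDC6 fell by 1.60 ± 0.30 (SE, adjusted p = 0.00959), PRI2 by 1.27 ± 0.23 (SE, adjusted p = 0.00859), PRI1 by 1.09 ± 0.17 (SE, adjusted p = 0.00652) and ORC6 by 1.16 ± 0.20 (SE, adjusted p = 0.00819), all in limma and in 3 of 3 libraries. ORC6, the subunit that in yeast binds CDT1, the partner that brings in the helicase, was at 24.6, 27.2 and 24.3 FPKM in GD, 23.1, 29.2 and 22.4 FPKM in SD and 57.9 FPKM in control, so GD and SD overlapped and control stood alone. POL31 (-1.05), DPB4 (-1.06), PSF1 (-0.80) and RFC4 (-0.78) were the other 4 of the 8 with the lowest adjusted p, from 0.00873 to 0.0137 (limma). PRI2, POL31, PSF1 and RFC4 no longer passed after scaling, and none of the 9 genes named here passed in the fit of GD and control alone.

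Between RD strains and their wild-type library, ControlSYN3, no replication gene passed, and no gene of the table did: 0 of 41 in either direction, where 0% of 5895 genes did (limma, adjusted p under 0.05). At an unadjusted p under 0.05, 15 of the 41 were higher in RD and 0 lower, where 5.16% of all genes were higher and 6.23% lower. The median log2 difference of the 41 genes was 0.36, against -0.10 over all genes. Every RD library was above ControlSYN3 in 28 of 41 genes, which held for 29% of all genes, and below it in 4 of 41, which held for 41.2%. The fit had 2 residual degrees of freedom and 1 wild-type library.

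The largest positive differences of the 41 genes in that table were those of POL30, RAD27, POL1 and CDC45. POL30 was at 79.3, 119.8 and 134 FPKM in RD and 30.97 FPKM in ControlSYN3, in the order RD1, RD5, RD6. RAD27 was at 59.97, 69.95 and 68.5 FPKM in RD and 25.5 FPKM in ControlSYN3. Every RD library was above ControlSYN3 in both genes, with RD1 the lowest. POL1 was at 17.9, 22.1 and 21.5 FPKM in RD and 7.7 FPKM in ControlSYN3. CDC45 was at 12.6, 15.3 and 17.2 FPKM in RD and 6.03 FPKM in ControlSYN3. PSF2 had the opposite order, at 77.5, 41.2 and 42.96 FPKM in RD and 109 FPKM in ControlSYN3, where ControlSYN3 was above every RD library. ORC4, at 27.8, 28.7 and 27.7 FPKM in RD and 27.7 FPKM in ControlSYN3, was almost level across the table.

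Without RD1, which leaves 1 residual degree of freedom, 23 of the 41 genes passed as higher in RD, where 22.1% of all genes did, and 2, PSF2 and DPB4, as lower, where 31.8% did (limma, adjusted p under 0.05). POL30 was then higher by 2.0 ± 0.12 (SE), RAD27 by 1.41 ± 0.10 (SE) and POL1 by 1.39 ± 0.12 (SE) on the log2 scale, while PSF2 fell by 1.35 ± 0.10 (SE). CDC45 (1.30), PRI2 (0.98), CDC9 (0.95) and RFA2, the middle subunit of RPA (0.91), were the others among the 8 genes with the lowest adjusted p. The adjusted p of these 8 genes was 0.00176 to 0.00419 without RD1 and 0.404 to 0.911 in the other alternatives run (limma). RD1 was the lowest of the RD libraries in 23 of the 41 genes, where it was in 39.2% of all genes.

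Among the GD libraries, GD2 was the lowest in 23 of the 41 genes, where it was in 32% of all genes, and the highest in 15, where it was in 49.1%. GD2 lay below the other GD libraries in POL30, RFC5, RFA1 and RFA2, among others. RFA2 was at 71.2, 45.4 and 77.5 FPKM in GD, 29.3, 27.8 and 31.1 FPKM in SD and 90.4 FPKM in control. PSF1, PSF2 and PSF3, of the 4 GINS genes, had their highest GD value in GD2, and PSF3 was at 68.8, 110.2 and 93.03 FPKM in GD, 69.2, 55.3 and 65.01 FPKM in SD and 173 FPKM in control.

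The MCB core was common in the promoters of the 41 genes. Searched on both strands of the 300 bases described above, ACGCGT lay in 17 of 41 promoters (41.5%), against 184 of 6001 promoters of nuclear protein-coding genes (3.07%), and 2 or more cores lay in 6 of 41 (14.6%), against 21 of 6001 (0.35%). The 6 genes were CDC45, POL1, POL12, RAD27, RFA1 and RFA2. CACGAAA or CGCGAAA lay in 10 of 41 promoters (24.4%), against 462 of 6001 (7.7%); 4 of the 41 held both elements, and in 1 of these, POL30, the matches overlap. None of the 6 ORC genes and none of the MCM2 to MCM7 genes held an MCB core. A match is a run of letters and not a shown binding site.

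In 3 of the 4 comparisons, the median difference of the 41 genes was larger in size with more MCB cores, and in GD against control it was not. For GD against SD, the median log2 difference was 0.49 in the 24 of the 41 genes with no core, 0.71 in the 11 with 1 and 1.33 in the 6 with 2, while over all genes tested, which include these 41, it was -0.05, 0.49 and 1.06 with no core, 1 core and 2 or more. Passing as higher in GD were 15 of 24, 10 of 11 and 6 of 6. For SD against control the medians of the 41 were -0.94, -1.44 and -1.83, and over all genes -0.36, -0.91 and -1.62. For GD against control they were -0.32, -0.78 and -0.55, and over all genes -0.43, -0.59 and -0.56. For RD against ControlSYN3 they were 0.14, 0.64 and 1.06, and 0.11, 0.72 and 1.13 without RD1, and over all genes -0.11, 0.18 and 0.80, and -0.14, 0.20 and 0.84 without RD1. These medians are descriptions without a test. RFC5 and RFA3 held no core in the window and differed by 1.66 and 1.42 between GD and SD, and PSF3, with 1 core, did not pass.

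**Figure D4:**
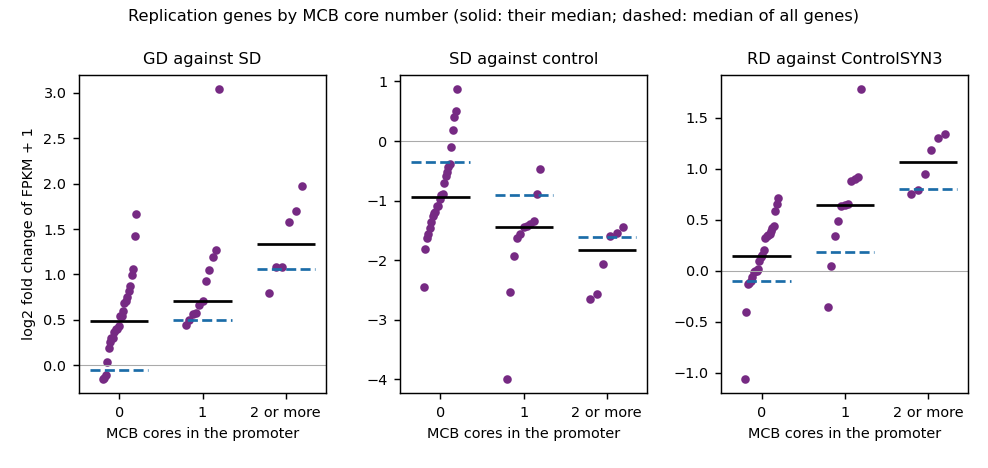
Log2 fold change of each of the 41 genes (vertical axes, log2(FPKM + 1) scale) by the number of MCB cores in its promoter (horizontal axes), in 3 comparisons with all libraries, RD1 included, with 1 point per gene, solid lines at their medians and dashed lines at the medians of all genes with as many cores. The solid line moves from 0.49 to 1.33 on the left, from -0.94 to -1.83 in the middle and from 0.14 to 1.06 on the right.

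Some of these genes lie beside each other. POL30 and RFC5 are convergent neighbours on chromosome II, with 160 bases between their annotated coding ends, and had the same order of GD libraries. That order is not particular to this pair: RAD27, CDC45 and RFA2, on other chromosomes, were among further genes that had it. Since the sources used here do not give the strand of the libraries, reads from overlapping transcript ends of convergent neighbours cannot be told apart. ORC5 and POL2 lie in tandem on chromosome XIV with 219 bases between them, and differed by -0.14 and 1.05 between GD and SD on the log2 scale. PSF2 shares a divergent region of 269 bases on chromosome X with ARG2, a gene of arginine synthesis, at 43.9, 98.3 and 28.6 FPKM in GD, 70.6, 47.1 and 59.2 FPKM in SD, 35.1 FPKM in control, 51.3, 24.3 and 18.6 FPKM in RD and 85.0 FPKM in ControlSYN3. ARG2, like PSF2, was highest in GD2 in its table and in ControlSYN3 in the other. This was not particular to the pair. TAH11, another replication factor, and MET4, the neighbour of POL1, were also highest in these 2 libraries of their tables and do not adjoin PSF2. GD2 was the highest GD library in 49.1% of all genes. RFA1 shares a divergent region of 346 bases on chromosome I with SEN34, which passed as higher in GD than in SD by 2.25 (log2, adjusted p = 0.00059, limma).

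Further genes that act in or before S phase were counted in the same libraries. Their lists were chosen with earlier results of these data known, so the counts are descriptions and no independent support. Of 24 further replication factors, 22 were tested, and 12 passed as higher in GD than in SD and 0 as lower, where 20.4% of all genes passed in each direction; the other 10 did not pass. CSM3 and TOF1, partners in fork protection, passed at 1.22 ± 0.15 and 1.06 ± 0.16 (SE), and CTF18, of an alternative clamp loader, at 1.02 ± 0.14 (SE), on the log2 scale (limma, adjusted p = 0.00124, 0.00263 and 0.00161). Of 13 cyclins and regulators of the G1/S border, 10 passed as higher in GD and 0 as lower, against the same 20.4% in each direction. CLN2 was higher by 2.39 ± 0.17, CLN1 by 1.82 ± 0.13 and NRM1, a repressor acting on MBF, by 1.88 ± 0.14 (SE, log2, limma, adjusted p = 0.000157, 0.000173 and 0.000173). Of the ribonucleotide reductase genes, which make the DNA precursors, RNR1 passed as higher, by 2.98 ± 0.43 (SE, adjusted p = 0.00225, limma), and the other 3 of 4 did not pass, with a median of -0.24 over the 4. RNR1 was at 67.2, 28.7 and 88.2 FPKM in GD, 5.41, 9.71 and 4.38 FPKM in SD and 47.6 FPKM in control, with GD2 the lowest GD library as in POL30.

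Stress and reserve carbohydrate genes went the other way in the same libraries. This list too was chosen with earlier results of these data known, so its counts are descriptions and no independent support. Of 17 tested, 17 passed as lower in GD than in SD, where 20.4% of all genes did, led by SOL4 (-3.56 ± 0.18), HSP26 (-4.05 ± 0.33) and HSP42 (-2.72 ± 0.24) (log2 ± SE, limma, adjusted p = 6.9e-05, 0.000264 and 0.000345). Their summed level was 5295, 4807 and 4147 FPKM in GD, 30254, 44171 and 43667 FPKM in SD and 9277 FPKM in control, and 24912, 17848 and 13902 FPKM in RD and 26838 FPKM in ControlSYN3. The summed level of the 13 G1/S genes was 743, 631 and 737 FPKM in GD, 349.9, 395 and 329.7 FPKM in SD and 863 FPKM in control, and 771, 772 and 858 FPKM in RD and 388 FPKM in ControlSYN3. The libraries with the lowest median of the 41 replication genes in their tables, SD and ControlSYN3, were those with the highest stress sums and the lowest G1/S sums. Abundant genes weigh most in such sums, and the stress sums of ControlSYN3 and RD1 were close. Between RD and ControlSYN3, the log2 differences of the 17 stress genes ran from -1.62 to 0.53. Their median was -0.35, against -0.10 over all genes, and no gene passed in that comparison with RD1 included. Against control, 15 of the 22 replication factors and 12 of the 13 G1/S genes passed as lower in SD, where 31.4% of all genes did, and 9 of the 17 stress genes as higher, where 10.4% did. After scaling by the median ratio of all genes these counts were 9, 11 and 10, where 17.5% of all genes passed as lower and 18.7% as higher. The part of growth state or stress in the levels of the replication genes was not tested.

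**Figure D5:**
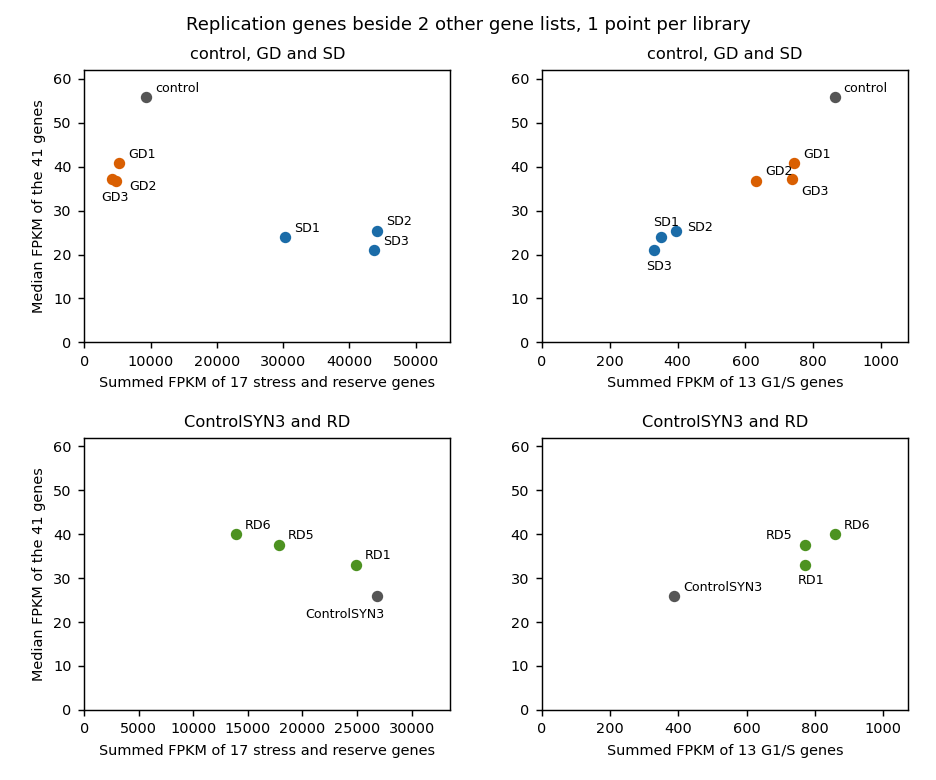
Median FPKM of the 41 replication genes in each library (vertical axes) against the summed FPKM of the 17 stress and reserve genes (left) and of the 13 G1/S genes (right), with 1 point per library and 1 table per row. SD libraries lie at 30254 FPKM or more of stress transcripts and at 395 FPKM or less of G1/S transcripts, and ControlSYN3 has the highest stress sum and lowest G1/S sum of its table. The stress sum of RD1 lies close to it, at 24912 FPKM against 26838 FPKM in ControlSYN3.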

How the data were processed

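Both tables, of 5936 and 5931 rows, hold FPKM that the authors computed, per the file headers. The submitters' processing notes name RSEM, Bowtie2, BWA and the build R64, with no versions or order. FPKM are scaled within a library, so abundant genes can shift all others. Columns were matched to samples by name. The headings MD1, MD5 and MD6 were read as RD1, RD5 and RD6 because the numbers agree, which is an inference. A search for whole fragments in the low values gave mean distances of 0.14 to 0.186. Each was the lowest over many settings of fragment length and library size, while 0.25 is the value without steps at a single fixed setting. The search therefore cannot decide whether low values are whole fragments. The depth is unknown and its precision is not given. Gene numbers were looked up in the R64 annotation of RefSeq, which gave symbols to 5774 and 5770 rows, and promoters were read from that genome.

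The tests were those of limma 3.58.1 (R 4.3.3) on log2(FPKM + 1), which understates changes of low genes, with trend and robust empirical Bayes estimates, a mean per group, one model per table, and Benjamini-Hochberg adjustment at 0.05 over the 5899 and 5895 genes whose mean reached 1 FPKM. All 41 genes passed this minimum. The fits left 4 and 2 residual degrees of freedom. The procedure was tested on simulated data. Alternatives were a pseudocount of 0.1, no minimum, a minimum of 10 FPKM, median-of-ratios scaling, neither trend nor robust estimates, fits restricted to the groups compared, replicate number as a block, and each strain library left out in turn.

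The 41 genes, the other lists and the motifs were chosen with earlier results of these data known. Full statistics were given for called genes, at most the 8 with the lowest adjusted p in each direction, values per library for the highest and lowest gene of each complex, and, from the other lists, the 3 called genes with the lowest adjusted p in each direction. POL30, RFC5, ORC4, CDC6 and PSF2 were given statistics outside that rule after their values were seen. SEN34 and ARG2 were named as neighbours in the same way, and TAH11 and MET4 for comparison with ARG2. MRC1, DCC1 and GLK1 were not analysed here. Of the mating lists, 3 of 4 alpha genes passed as higher and 1 of 6 a-cell genes as lower in GD than in SD, and of 6 haploid-specific genes 1 passed in each direction.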

Additional observations from a re-analysis of the deposited data

How the results depend on the processing

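Across the alternatives run, no count or median of the 41 genes changed direction, and of the 14 replication genes given alternatives in GD against SD PSF2 did: its difference between GD and SD was -0.14 to 0.53 with 1 library left out, negative without GD2. CDC6 did not pass without SD3. Genes of the other lists and SEN34 were not refitted under the alternatives one by one. For GD against SD, leaving out 1 library gave 18 to 31 genes higher, with the lowest count without SD3, and medians of 0.59 to 0.76; the replicate block gave 27 higher, where 16% of all genes were. Same-numbered GD and SD libraries did not deviate together (r = -0.126, -0.18 and -0.166 across genes), and no library correlated best with its own number. Each deviation was taken from the mean of its own group of 3, which ties these r values to each other. They therefore cannot decide whether the numbers pair the libraries. For GD against control, scaling gave 3 higher and 4 lower with a median of -0.0053, the fit of the groups alone 0 and 0, and leaving out 1 library 1 to 2 higher and 11 to 16 lower. For SD against control, scaling gave 3 higher with a median of -0.97, the fit of the groups alone 2 higher, and leaving out 1 library 0 to 2 higher, 27 to 33 lower and medians of -1.36 to -1.27. For RD against ControlSYN3, leaving out 1 library gave 0 to 23 higher, 0 to 2 lower and medians of 0.31 to 0.41, with calls only without RD1, and scaling gave a median of 0.45. Scaling centres all genes by construction; the cause of the other changes was not tested. Without RD1 the fit has 1 residual degree of freedom and called 53.9% of all genes. With neither trend nor robust estimates 0 of the 41 passed in RD. A single wild-type library per table and unknown depth limit the comparisons with wild type.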
